A study of Mus musculus with 8 samples.

Results

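The genes described here encode the enzymes that a body uses to modify and clear foreign chemicals: cytochrome P450s of families Cyp2, Cyp3 and Cyp4, glutathione S-transferases (Gst), UDP-glucuronosyltransferases (Ugt), cytosolic sulfotransferases (Sult) and carboxylesterases (Ces). They were chosen by their gene names alone, which gave 55 of the 21692 genes in the deposited table. RNA had been sequenced from mouse forelimb buds (the outgrowths that become the front limbs) of CD1 embryos at gestation day 13, kept for 24 h in culture with either the solvent vehicle, dimethyl sulfoxide, or organophosphate esters (OPE). These are used as flame retardants and plasticisers, and here were mixed after their make-up in house dust and diluted 1 in 300000. There were 4 libraries in each group, called vehicle 1 to 4 and OPE 1 to 4 below. All 8 shared the strain, stage and culture time, so no uncultured bud enters the comparison, and each library pools the several cell types of a bud.

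Oxidation by P450s or hydrolysis by carboxylesterases usually exposes a reactive group on a chemical, and transferases then attach glutathione, glucuronic acid or sulfate, which makes the product easier to excrete. Organophosphate esters are themselves substrates of P450s and esterases. Liver, intestine and kidney are the tissues best known for these enzymes, whereas several glutathione S-transferases are made in most dividing cells and many Cyp4 enzymes act on the body's own fatty acids.

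The limb bud expressed 24 of the 55 genes, counting as expressed a vehicle mean of at least 1 CPM, the read count scaled to the library's total with no correction for gene length. This was 43.6% of these genes, against 66.4% of all genes in the table. The glutathione S-transferases supplied most of them, with 13 of 16 expressed. Of the P450s, 4 of 15 Cyp2 genes, 4 of 7 Cyp4 genes and 0 of 2 Cyp3 genes were expressed. Among the other conjugating and hydrolysing enzymes, 3 of 5 sulfotransferases, 0 of 1 glucuronosyltransferase and 0 of 9 carboxylesterases reached that level. The nearest genes to the limit were Gsto2 at 1.28 CPM and Cyp2w1 at 1.40 CPM above it, and Cyp2t4 at 0.893 CPM and Cyp2u1 at 0.826 CPM below it. A GENCODE M21 annotation of the same mouse genome holds 153 genes of these names. The other 98 were not analysed here, so each share counts only genes in the table, where the lowest total of any gene was 1 read over the 8 libraries.

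Libraries held 14986793 to 22006738 counted reads. OPE 3 stood apart from the other 7 on principal component 1 of log2 CPM, which held 36.9% of the variance, and OPE 1 on component 2. The groups did not overlap on component 2, with scores of 12.8 to 23.2 in vehicle and -43.9 to 2.8 in OPE. OPE 3 also carried a trend on gene length, with a slope of -0.24 log2 units per doubling of length against -0.06 to 0.07 in the other libraries. The forelimb label was checked on marker genes: all 6 limb mesenchyme markers, among them Prrx1 and Hoxd13, were expressed, and Tbx5, the forelimb factor, averaged 73.2 FPKM (reads scaled to both library total and gene length) in vehicle against 8.88 and 1.38 FPKM for the hindlimb factors Tbx4 and Pitx1. The labels do not say that the libraries of a group came from separate cultures or litters, and p-values then measure only how far these samples spread, which may be technical.

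Levels are compared between genes as the deposited FPKM. Gstp1, the pi-class transferase that conjugates a wide range of electrophiles, led with 153 ± 30.7 FPKM in vehicle (SD, n = 4). Gsta4, which clears the aldehydes of lipid peroxidation, followed with 52.0 ± 2.14 FPKM (SD, n = 4). Both separated from the next gene down, since no vehicle library of Gsta4 reached the lowest of Gstp1, and none of Gstm5 reached the lowest of Gsta4. The mu-class Gstm5 and the omega-class Gsto1, which reduces dehydroascorbate, had vehicle means of 39.4 and 38.6 FPKM and overlapped. Below them came Gstm1 at 25.4 FPKM, Gstz1 at 21.99 FPKM, Gstt1 at 10.2 FPKM and Gstm2 at 9.98 FPKM; Gstz1 is an isomerase in tyrosine breakdown. The remaining expressed transferases of this class were Gstm7, Gstm4, Gstt2, Gstt3 and Gsto2, between 6.93 and 0.964 FPKM.

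The highest P450 was Cyp4f17, of the fatty acid-hydroxylating Cyp4f subfamily, at 14.04 ± 0.750 FPKM in vehicle (SD, n = 4). Its relative Cyp4f16 had 7.11 FPKM, Cyp4f13 2.46 FPKM and Cyp4v3, also a fatty acid hydroxylase, 1.65 FPKM. Of the Cyp2 family, Cyp2d22 had 5.16 FPKM and Cyp2j6, an epoxygenase of polyunsaturated fatty acids, 3.73 FPKM, while Cyp2w1 and Cyp2s1 lay under 1 FPKM at 0.945 and 0.797. Sult5a1 was the highest sulfotransferase at 10.8 FPKM, followed by Sult1a1, which sulfates phenols, at 1.79 FPKM and Sult4a1, a brain-enriched member, at 1.01 FPKM. Over the whole order of 24 expressed genes, 9 of the 23 neighbouring pairs had vehicle values that did not overlap. As CPM, which is not corrected for length, the transferases of glutathione made up 78.1% of the reads of all 55 genes in vehicle, and Gstp1 alone 23.7%.

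**Figure D1:**
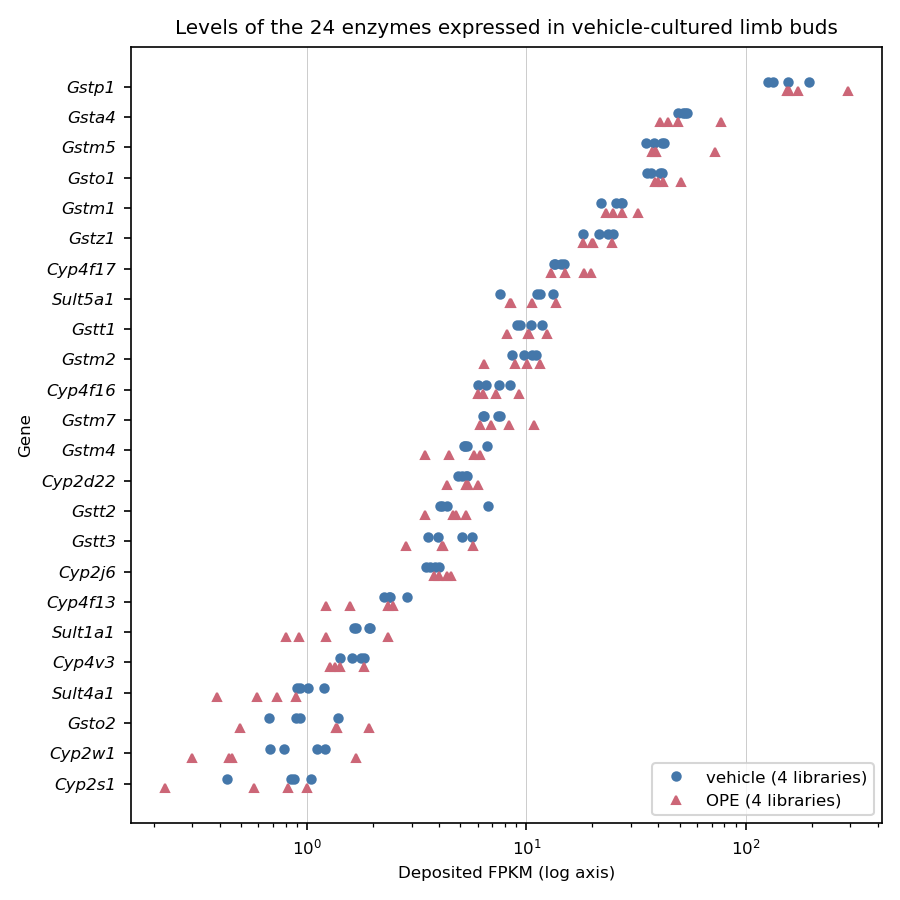
Deposited FPKM (log axis) of the 24 expressed genes, ordered by vehicle mean; circles are the 4 vehicle libraries and triangles the 4 OPE libraries. Gstp1 is highest with 153 FPKM in vehicle and Cyp2s1 lowest with 0.797, and in several Gst genes a single OPE library lies far to the right.

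Below the limit, 18 genes lay between 0.1 and 1 CPM and 13 under 0.1 CPM. They included genes best known from liver and gut: Cyp2e1, which oxidises ethanol and solvents, had 8 reads in all, 7 of them in vehicle, and Cyp3a13 had 5. The highest carboxylesterases in vehicle were Ces1d with 0.0993 FPKM and Ces2g with 0.0706 FPKM, followed by Ces2f and Ces4a with 4 vehicle reads each. Ugt1a7c, the only UDP-glucuronosyltransferase among the 55 genes, had 0.127 FPKM. Ces1a, Ces1e and Cyp3a57 had no read in any vehicle library. Reads in all 8 libraries were found for 38 of the 55 genes.

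Many of these genes are neighbours that arose by duplication, and neighbours differed widely in level. Gstp1 (mm10 chromosome 19, 4035407 to 4037921, minus strand) and Gstp2 (4040285 to 4042236, minus strand) lie within 6.8 kb, yet had 153 and 0.272 FPKM in vehicle. In the mu cluster on chromosome 3, 5 of 6 genes within 149.1 kb were expressed, from 39.4 FPKM for Gstm5 to 5.62 for Gstm4, and Gstm6 had 0.147. The theta cluster on chromosome 10 had all 3 of its genes expressed within 60.8 kb, at 4.57 to 10.2 FPKM. In the Cyp4f cluster on chromosome 17, Cyp4f17 and Cyp4f16 were expressed, while Cyp4f39, Cyp4f15 and Cyp4f37 within the same 234.9 kb had 0.371, 0.273 and 0.102 FPKM. Of the Cyp2j genes on chromosome 4, Cyp2j6 was expressed, and Cyp2j9 and Cyp2j8 had 0.189 and 0.0165 FPKM. The groups of 4 carboxylesterases on chromosome 8 had none expressed.

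**Figure D2:**
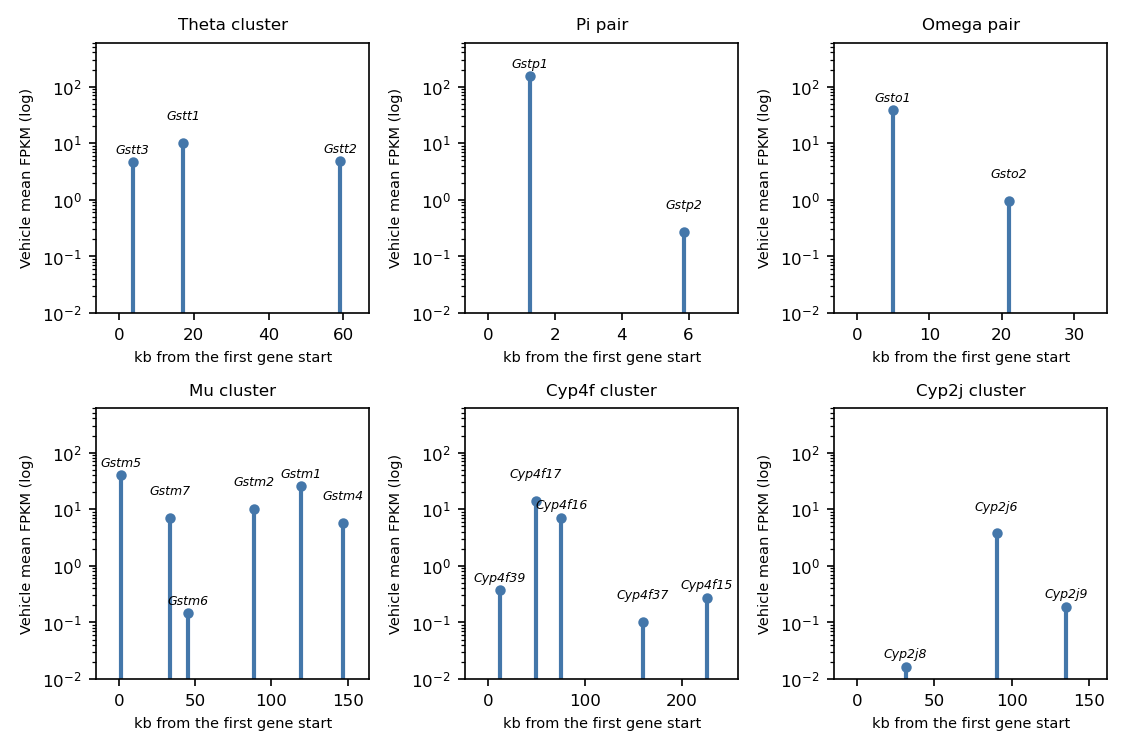
Vehicle mean FPKM (log axis starting at 0.01) of neighbouring genes against the distance in kb of each gene's middle from the start of its cluster; lines and points are single genes. Gstp1 stands at 153 FPKM beside Gstp2 at 0.272, and Gstm6 at 0.147 lies among mu-class genes at 5.62 to 39.4.

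The values of such near copies depend on how reads were shared out, and the sources used here do not give the counting rule for shared reads. Among transcripts of GENCODE M21, 54.3% of the 50-base stretches of Gstp2 and 33.7% of those of Gstp1 also occur in another gene, mainly each other. The corresponding shares were 53.6% for Ugt1a7c, 17.4% for Cyp4f16, 18.9% for Gstm1, 20.6% for Cyp2c65, 19.7% for Cyp4f37 and 12.5% for Gstt3, so that 8 genes exceeded 10% while 18 shared none. These 8 are therefore uncertain in level. Exons of 13 genes overlap those of another gene, mostly on the opposite strand, as for 13.9% of the exonic bases of Gstm5. The sources used here do not say whether counting used the strand. The partner of Gstm5 had fewer reads, 3299 against 6781, but other partners on the opposite strand had many more. Cyp2t4 had 153 reads against 15187 for Egln2, Sult2b1 109 against 11598 for Lmtk3, and Sult1a1 313 against 2146 for Sgf29. Whether reads of these partners entered the values of the enzymes was not tested.

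The promoters of 2 such pairs are shown because the genes of each pair lie in the same cluster and differ widely in level. Each sequence is the 250 bases before the RefSeq start on GRCm38.p6, Gstp1 at chr19:4037913-4038162 and Gstp2 at chr19:4042222-4042471, both on the minus strand, Gstm5 at chr3:107895604-107895853 on the plus strand and Gstm6 at chr3:107943735-107943984 on the minus strand. Capitals mark matches on either strand, and overlapping matches run together. Searched were GCGTG (the core letters bound by the aryl hydrocarbon receptor), TGACNNNGC (a form of the antioxidant response element), TGAGTCA (the AP-1 element) and TATAA. No other form of the antioxidant response element was searched. TGAGTCA and TATAA were added to the search after the Gstp sequences had been seen.
Gstp1: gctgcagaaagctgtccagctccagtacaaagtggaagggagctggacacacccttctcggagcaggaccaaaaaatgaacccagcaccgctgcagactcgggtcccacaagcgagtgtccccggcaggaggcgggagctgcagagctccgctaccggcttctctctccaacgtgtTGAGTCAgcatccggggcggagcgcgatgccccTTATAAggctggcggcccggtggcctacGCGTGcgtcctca
Gstp2: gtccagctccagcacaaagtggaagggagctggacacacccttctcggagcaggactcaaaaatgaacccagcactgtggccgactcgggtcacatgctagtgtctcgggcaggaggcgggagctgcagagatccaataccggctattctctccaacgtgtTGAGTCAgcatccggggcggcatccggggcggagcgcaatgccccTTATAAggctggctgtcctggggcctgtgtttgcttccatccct
Gstm5: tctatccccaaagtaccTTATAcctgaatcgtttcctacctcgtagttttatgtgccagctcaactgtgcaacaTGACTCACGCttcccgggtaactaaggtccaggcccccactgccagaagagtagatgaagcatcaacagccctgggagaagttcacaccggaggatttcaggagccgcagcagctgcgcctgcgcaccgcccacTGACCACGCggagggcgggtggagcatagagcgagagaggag
Gstm6: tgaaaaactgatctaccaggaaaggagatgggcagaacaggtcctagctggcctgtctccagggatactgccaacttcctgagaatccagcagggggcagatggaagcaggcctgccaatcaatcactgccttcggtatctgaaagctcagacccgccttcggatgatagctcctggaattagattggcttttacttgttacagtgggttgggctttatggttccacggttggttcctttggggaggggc
The Gstp1 and Gstp2 promoters were 88.1% identical over 235 aligned bases, and both hold TGAGTCA and TATAA. In both, the letters gc follow TGAGTCA directly, a stretch that differs from TGACNNNGC only by a G in place of C. The letters GCGTG are in the Gstp1 window and not in that of Gstp2, and CpG pairs number 18 and 12. The Gstm5 and Gstm6 promoters were 52.6% identical, with 13 and 4 CpG pairs, and none of the searched letters is in the Gstm6 window.

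Promoters of 46 of the 55 genes were matched in RefSeq, as windows of 300 bases from 250 before to 50 after the start. The RefSeq start nearest the deposited gene start was taken with no limit on distance. That distance was 15739 bases for Cyp4f39, 2339 for Cyp2ab1, 853 for Gstt1 and 542 for Gstz1. The 19 expressed genes among them held a median of 8 CpG pairs, the 27 others 3, while the median over all 32851 RefSeq promoters was 7. Across the 46 genes, CpG number and vehicle CPM had a Spearman correlation of 0.61, given as a description because these genes share clusters and ancestry. TATAA was in 21.1% of the expressed and 44.4% of the other promoters, against 24.9% of all promoters. The letters GCGTG were in 31.6%, 18.5% and 32.4%, and TGACNNNGC in 10.5%, 11.1% and 12.4%, in the same order. TGAGTCA was in 15.8%, 11.1% and 5.2%. A match is a run of letters and not a bound site.

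The OPE mixture was compared with vehicle to ask whether it alters transcription in the developing limb. None of these enzymes passed the test. Of the 55 genes, 32 had enough reads to be tested, the 24 expressed ones and 8 below 1 CPM. At 0.05, 0 of the 32 passed (quasi-likelihood test of edgeR, p adjusted by Benjamini-Hochberg over 15517 genes), where 0.477% of all genes tested passed, 0.0387% as higher and 0.438% as lower. No gene of the 32 had even an unadjusted p under 0.05, which 13.2% of all genes tested had. At an adjusted p of 0.1 the count was 0 as well, against 1.57% of all genes. DESeq2 and limma-voom also called 0 of them, and the lowest adjusted p for any of them in the authors' deposited table was 0.40021, for Cyp4f17. In no tested enzyme did the CPM values of the groups separate, which they did in 9.49% of all genes tested.

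The 32 log2 fold changes lay on both sides of 0, with 17 above and 15 below and a median of 0.06 against 0.01 over all genes tested. By class, 5 of 8 Cyp2 genes, 3 of 6 Cyp4 genes, 8 of 14 Gst genes and 1 of 4 Sult genes lay above 0. The precision was uneven. The 95% interval lay within a 1.5-fold change either way for 15 genes and within a 2-fold change for 20. Those 15 include the intervals of Gsto1 (-0.06 to 0.46), Gstm1 (-0.16 to 0.43), Gstz1 (-0.31 to 0.24), Cyp2d22 (-0.19 to 0.36), Cyp2j6 (-0.05 to 0.46), Cyp4f16 (-0.27 to 0.41) and Cyp4f17 (-0.01 to 0.58). For the other 12, among them Cyp4f39 with an interval from -2.69 to 0.28, a change of 2-fold or more in at least 1 direction lay inside the interval and so was not excluded.

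**Figure D3:**
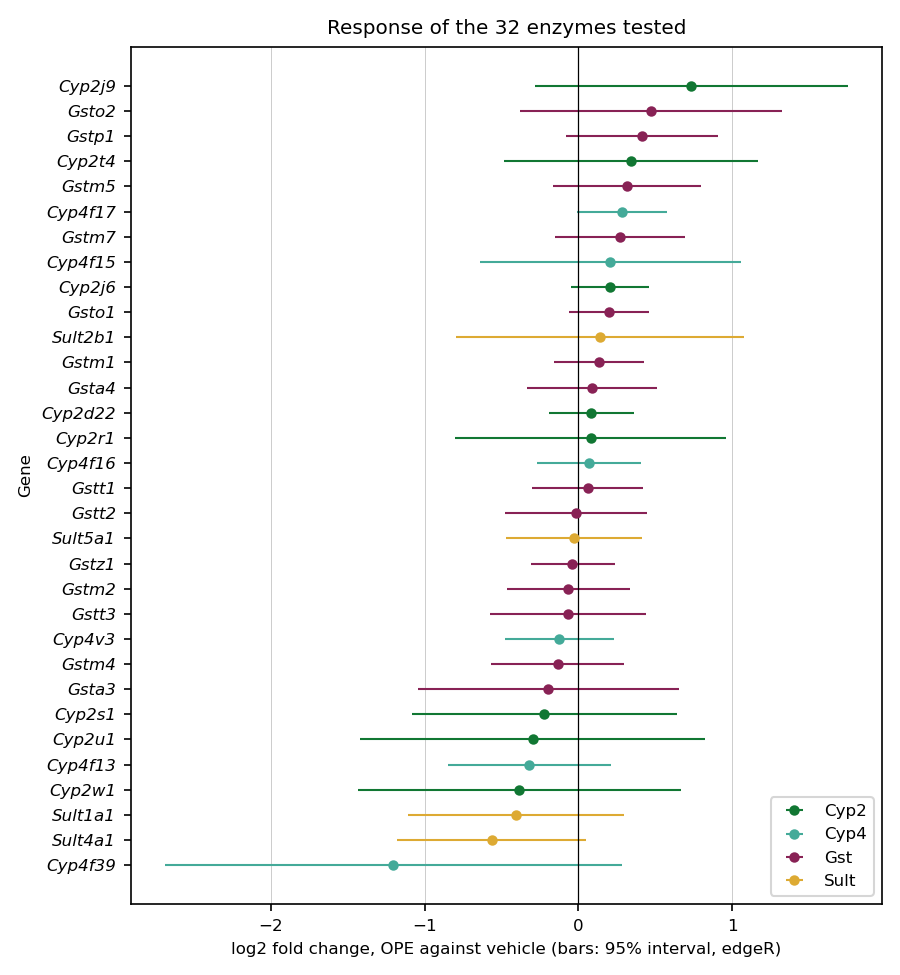
Log2 fold change of OPE against vehicle for the 32 tested genes, with 95% intervals from edgeR (4 libraries per group), coloured by class. Every interval includes 0, and those of well-covered genes such as Gstz1 are narrow while that of Cyp4f39 spans -2.69 to 0.28.

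Cyp4f17 came closest to the threshold. Its CPM values were 25.0, 23.9, 22.5 and 22.04 in vehicle 1 to 4 and 33.7, 30.8, 27.3 and 21.8 in OPE 1 to 4. Of the OPE libraries, 3 lay above all vehicle libraries and OPE 4 lay below them all, which gave a log2 fold change of 0.28 ± 0.13 (SE) and an adjusted p of 0.398. Cyp2j6 had 12.4, 14.1, 13.0 and 13.4 CPM in vehicle and 13.7, 16.3, 16.8 and 14.4 CPM in OPE. Its groups overlapped only through OPE 1 and vehicle 2, with a log2 fold change of 0.21 ± 0.12 (SE) and an adjusted p of 0.486.

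Sult4a1 had the lowest p among the sulfotransferases. It measured 2.20, 2.34, 2.81 and 2.08 CPM in vehicle and 1.75, 0.926, 2.29 and 1.40 CPM in OPE. OPE 3 reached into the vehicle range and the other 3 OPE libraries lay below it, giving -0.57 ± 0.28 (log2 fold change, SE) and an adjusted p of 0.422. As deposited FPKM, which is not TMM-scaled, the groups did not overlap, with 0.896 as the lowest vehicle and 0.892 as the highest OPE value. Sult1a1 measured 2.26, 2.60, 2.20 and 2.57 CPM in vehicle and 1.11, 1.26, 1.802 and 3.20 CPM in OPE. Here OPE 4 was the highest of the 8 and the other 3 OPE libraries lay below all vehicle libraries, with a log2 fold change of -0.40 ± 0.32 (SE). The groups of Sult5a1 also overlapped, at -0.03 ± 0.20 (log2 fold change, SE), as did Sult2b1, a cholesterol sulfotransferase, at 0.14 ± 0.43.

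Cyp4f39, an omega-hydroxylase needed for the skin barrier, had the most negative estimate, -1.20 ± 0.68 (log2 fold change, SE), with an adjusted p of 0.492. Its values of 0.620, 0.764, 0.234 and 0.710 CPM in vehicle and 0.0461, 0.661, 0.277 and 0.0666 CPM in OPE overlapped. At the other end, Cyp2j9 had 0.74 ± 0.46 (log2 fold change, SE) and an adjusted p of 0.545 at under 1 CPM in vehicle. Cyp4f13 was estimated at -0.32 ± 0.24, Cyp4v3 at -0.12 ± 0.16 and Cyp2s1 at -0.22 ± 0.39 on the same scale. Cyp2w1 measured 1.02, 1.78, 1.17 and 1.64 CPM in vehicle and 0.692, 2.51, 0.485 and 0.666 CPM in OPE. OPE 2 was the highest and the other 3 OPE libraries were the lowest of the 8. Its log2 fold change was -0.38 ± 0.48 (SE), and -1.17 without OPE 2, where the adjusted p was 0.20.

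Of the glutathione S-transferases, Gstp1, Gstm5 and Gsta4 owed their positive estimates largely or wholly to OPE 3. Gstp1 measured 99.6, 94.0, 116.7 and 143.8 CPM in vehicle and 118.1, 130.6, 238.1 and 118.5 CPM in OPE. OPE 3 was far above the rest and the other 3 OPE libraries lay inside the vehicle range. The log2 fold change was 0.41 ± 0.22 (SE) with an adjusted p of 0.477, and 0.11 without OPE 3. Gstm5 measured 37.7, 44.2, 45.4 and 40.4 CPM in vehicle and 40.7, 41.7, 84.8 and 41.9 CPM in OPE. Again only OPE 3 left the vehicle range, and the log2 fold change was 0.32 ± 0.22 (SE) with it and -0.02 without it. Gsta4 measured 46.5, 50.5, 48.9 and 49.6 CPM in vehicle and 39.3, 46.9, 79.6 and 42.2 CPM in OPE. OPE 3 lay above all vehicle libraries and OPE 1 and OPE 4 below them all, with a log2 fold change of 0.09 ± 0.19 (SE), and -0.19 without OPE 3. Gsto1 and Gstm7 had 0.20 ± 0.12 and 0.27 ± 0.19 (log2 fold change, SE), and 0.08 and 0.06 as the lowest values when single libraries were left out.

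Summed over the class, Gst genes came to 375 ± 31.8 CPM in vehicle (SD, n = 4) and 437 ± 126 CPM in OPE (SD, n = 4). The OPE libraries held 356, 390, 624 and 376 CPM, so OPE 3 was the highest of the 8 and the other 3 lay within the vehicle range of 334.8 to 410.5. The log2 ratio of the means was 0.22, and -0.003 without OPE 3. Cyp2 genes summed to 34.9 ± 1.16 CPM in vehicle (SD, n = 4) and 37.3 ± 4.25 CPM in OPE (SD, n = 4). Cyp4 genes summed to 50.8 ± 2.94 and 55.1 ± 7.43 CPM, and sulfotransferases to 18.3 ± 2.64 and 16.7 ± 2.75 CPM (SD, n = 4 each). In each of these classes the groups overlapped, and for the Gst, Cyp2 and Cyp4 genes the OPE libraries were the more spread.

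**Figure D4:**
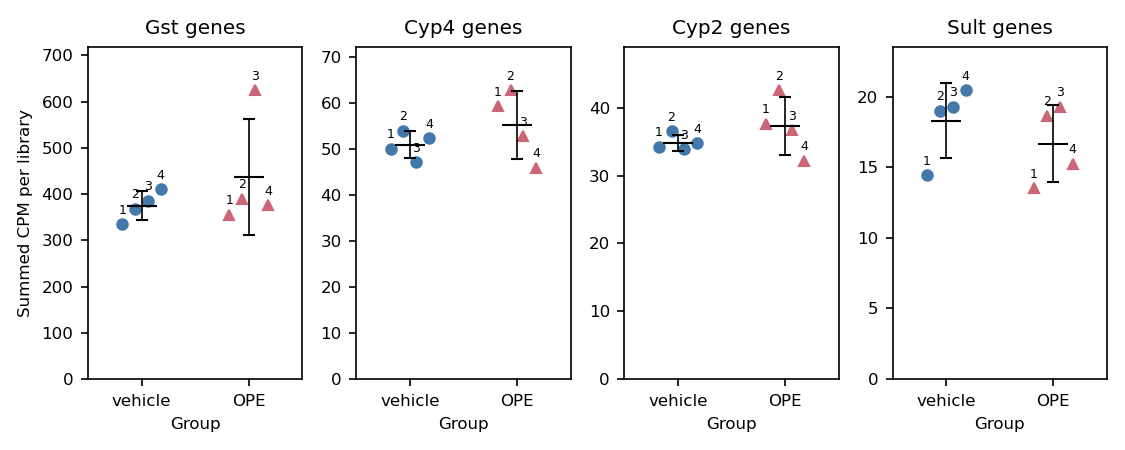
Summed CPM per library of the Gst, Cyp4, Cyp2 and Sult genes; points are libraries with their replicate number, and bars the mean ± SD of 4. For Gst, OPE 3 lies at 624 CPM, while the other OPE libraries lie within the vehicle range.

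In OPE 3, 11 of the 14 tested Gst genes had their highest value of the 8 libraries, and the other 3, Gstz1, Gstm2 and Gstt2, lay within the vehicle range there. Of the 14 tested P450s, 4 were lowest in OPE 3, close to the 26.7% of all genes tested that were. The Gst genes are short, with 10 of the 14 at or under 1613 bases, the median of the 32 tested genes, against 3 of the 14 P450s. Of all tested genes at or under that length, 63.5% were highest in OPE 3, against 30.9% of all genes tested. The median deviation of the Gst genes in OPE 3 from the vehicle mean was 0.50 log2 units, and that of all 2859 short genes was 0.48. With the length trend of each library removed, the Gst median in OPE 3 was 0.27. The erythroid markers, 5 genes summed, also peaked there, with 2242 CPM in OPE 3 against 829.5 to 1219 in the vehicle libraries. The part of gene length and of blood cells in the Gst values was not tested.

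**Figure D5:**
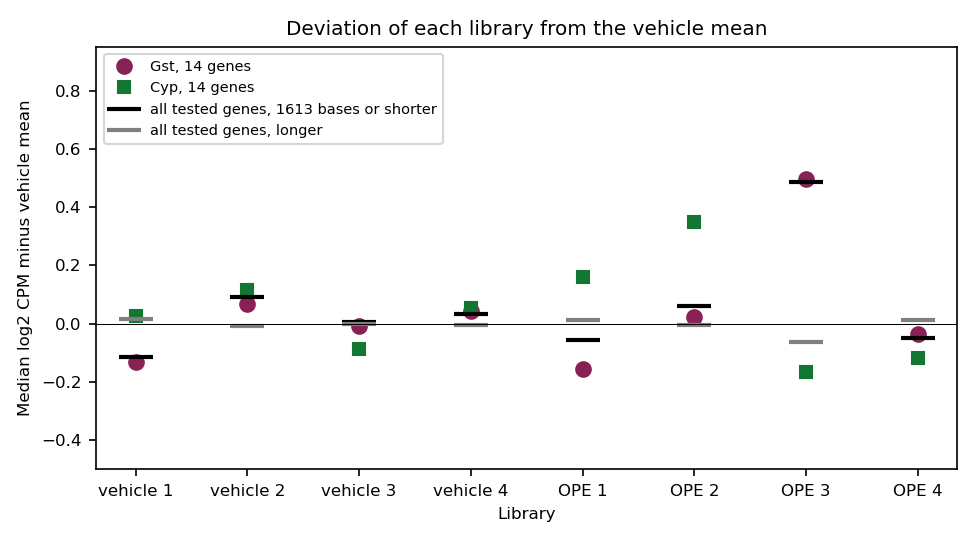
Median log2 CPM minus the vehicle mean in each library for the 14 tested Gst genes (circles), the 14 tested Cyp genes (squares), and all tested genes of 1613 bases or shorter (black bars) or longer (grey bars). In OPE 3 the Gst median is 0.50 and that of all short genes 0.48.

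The other 23 genes had too few reads for the test, at most 69 in all for Sult6b1. For the 11 of them with at least 10 reads, the ratio of CPM from pooled reads, with its exact 95% interval, covers counting error only. Ces1d had 3, 3, 7 and 3 reads in vehicle and 1, 0, 0 and 1 in OPE. The groups did not overlap, and the ratio of OPE to vehicle was 0.153 (0.0171 to 0.652). Ces2g had 4, 3, 7 and 2 reads in vehicle and 1 in each OPE library, also without overlap, with a ratio of 0.307 (0.0746 to 0.951). These carboxylesterases were the only 2 of the 23 whose CPM values separated. Of all genes tested, 9.49% separated, but the 23 are not among those genes. The share among genes with so few reads was not computed. Ugt1a7c had 33 reads in vehicle and 11 in OPE, a ratio of 0.409 (0.186 to 0.8293), with none in OPE 1 or OPE 4 and overlap through the others. The interval for Cyp2ab1, 14 reads against 3, ran from 0.0484 to 0.942, and that for Gstp2, 17 against 27, from 1.02 to 3.81. For Sult6b1 it included 1. Because fewer cells of a type and less RNA per cell cannot be told apart in a bulk library, markers of cells that make such enzymes were also read. Of the 9 hepatocyte markers, 2 were in the table, with Ttr at 0.0701 CPM in vehicle and 0.156 in OPE, and they summed to 1.40 to 2.55 CPM in vehicle and 0.266 to 0.901 in OPE. Of these only Apoa1 was tested, and it fell by 2.22 on the log2 scale (adjusted p = 0.0452, edgeR). The 3 intestinal markers in the table, of 4, summed to 8.42 to 10.2 CPM in vehicle and 8.39 to 9.85 in OPE, and 1 of them, Fabp2, fell from 0.749 to 2.09 CPM in vehicle to between 0 and 0.132 in OPE (adjusted p = 0.0158, edgeR). Vil1 of the same list also lay lower, with 0.713 to 0.936 CPM in vehicle and 0.333 to 0.529 in OPE, without overlap. Its log2 fold change was -1.03 (adjusted p = 0.195, edgeR). Lgals4, the most abundant of the 3, lay the other way, with 6.25 to 7.54 CPM in vehicle and 8.05 to 9.43 in OPE. Its groups did not overlap either (log2 fold change 0.36, adjusted p = 0.253, edgeR). The Apoa1 and Fabp2 calls were lost in some fits without a single library, for Apoa1 in 7 of 8 (adjusted p up to 0.144) and for Fabp2 in 4, without vehicle 1, 2 or 4 or OPE 2 (up to 0.0651). Of 6 macrophage markers tested, 5 fell (edgeR); Csf1r passed without any single library, the other 4 did not in at least 4 of the 8 such fits, and the 6 summed to 116 to 133 CPM in vehicle and 19.7 to 53.3 in OPE. The 5 endothelial markers summed to 182 to 240 CPM in vehicle and 93.6 to 176 in OPE. With edgeR 0 of them passed, while DESeq2 called Cdh5 and Pecam1. Of the 5 log2 fold changes, 4 lay below 0 and 1, that of Emcn, above it at 0.34. Of 4 adipocyte markers, 3 were in the table, and they summed to 3.55 to 8.03 CPM in vehicle and 2.20 to 3.95 in OPE. Fabp4 lay at -1.43 on the log2 scale (adjusted p = 0.135, edgeR) and was called by DESeq2. Pparg lay above 0 at 0.31 (adjusted p = 0.816, edgeR). Plin1, not tested, had 0.169 to 0.561 CPM in vehicle and 0 to 0.132 in OPE. None of the 3 kidney tubule markers was in the table. The part of these cell types in the low read counts was not tested.

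The genes that work with these enzymes were read from 9 lists of 140 names, of which 102 were tested, 1 rose and 1 fell with edgeR. Of all genes tested, 0.477% passed with edgeR. Of the 102, 21 had an unadjusted p under 0.05, which 13.2% of all genes tested had. DESeq2 called 7 and limma-voom 3, and among all genes they called 504 and 101. DESeq2 was run without the filter on low counts, so its 504 come from a different set than the 15517 genes of edgeR. The list of other P450s held 7 of those 21 among its 13 tested genes. These values over all genes are also the background for the counts of single lists below. The gene that rose was Cyp51, the lanosterol demethylase of cholesterol synthesis and a P450 outside the families above, from 111 to 172 CPM (log2 fold change 0.63 ± 0.11 SE, adjusted p = 0.0388, edgeR). The gene that fell was Abcc3, an efflux pump for glucuronides and other conjugates. It measured 5.36, 5.86, 6.18 and 6.87 CPM in vehicle and 0.599, 1.19, 1.73 and 2.66 CPM in OPE. All OPE libraries lay below all vehicle libraries, and the log2 fold change was -2.01 ± 0.34 (SE, adjusted p = 0.0388, edgeR). Both calls were lost without vehicle 1, 2, 3 or 4 or OPE 2, and that of Cyp51 also without OPE 1, with adjusted p up to 0.127 and 0.121. Cyp1b1, a P450 induced through the aryl hydrocarbon receptor, had 18.1 to 23.0 CPM in vehicle and 25.5 to 37.5 in OPE. Its groups did not overlap, but it missed the threshold, with a log2 fold change of 0.71 ± 0.13 (SE) and an adjusted p of 0.0516 (edgeR); DESeq2 and limma-voom called it.

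The supporting machinery was present. All 9 genes listed for electron supply to P450s and for haem handling, Hmox1 and Pgrmc1 among them, were expressed. Pgrmc1 led at 98.8 FPKM in vehicle, followed by Por, the reductase that serves the microsomal P450s, at 41.1 FPKM. None of the 9 passed the edgeR test, 2 had an unadjusted p under 0.05, DESeq2 called 1 (Cyb5r1) and limma-voom 0, and 8 had log2 fold changes above 0 with a median of 0.17. Of 15 xenobiotic-sensing receptors and partners in the table, 12 were tested and 0 passed with edgeR, DESeq2 or limma-voom, with 3 at an unadjusted p under 0.05. Nr1i2 and Nr1i3, the pregnane X and constitutive androstane receptors that induce Cyp2b and Cyp3a genes in liver, had 0.0476 and 0.0579 CPM in vehicle. Ahr, the aryl hydrocarbon receptor, had 14.6 CPM in vehicle and 10.97 in OPE. Nfe2l2, the factor that drives many Gst genes, had 42.7 and 44.5 CPM.

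Glutathione synthesis and recycling had 12 genes tested, of which 0 passed with edgeR (2 at an unadjusted p under 0.05) or limma-voom and 1 with DESeq2, 8 lay above 0 and the median log2 fold change was 0.11. Chac1, which degrades glutathione, had 9.08 to 13.4 CPM in vehicle and 22.7 to 88.1 in OPE, and its adjusted p was 0.061 with edgeR; it is the gene that DESeq2 called. With edgeR no gene passed among the 10 that supply UDP-glucuronate or the sulfate donor, the 10 other conjugating enzymes, the 19 other oxidising and hydrolysing enzymes or the 6 deconjugating enzymes tested, whose medians lay between -0.18 and 0.05. Unadjusted p-values under 0.05 numbered 0, 1, 4 and 0 in these lists, and DESeq2 called Xdh among the oxidising enzymes while limma-voom called 0. Among the 11 transporters tested, 8 lay below 0, with a median of -0.11, and Abcc3 alone passed with edgeR and with limma-voom. DESeq2 also called Slco3a1, an uptake transporter, at -0.43 ± 0.12 (log2 fold change and SE of edgeR, adjusted p = 0.153).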

How the data were processed

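Polyadenylated RNA of 8 cultured forelimb bud libraries was sequenced. Build mm10, DESeq2 (version 2), HTSeq 0.6.1, STAR 2.5 and CASAVA 1.8 are named in the submitters' processing notes. The sources used here do not give what each tool did, the annotation release or the strand setting. A single table was deposited by the authors and holds, per the file headers, read counts, size-factor-normalised signal values and FPKM per library, and their own log2 fold change and p-value columns. The deposited FPKM equals the count divided by gene length and by the library's total count, as checked on the values. The authors' adjusted p-value is missing for 18 of the 55 genes.

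Libraries were grouped by their titles. The deposited counts of all 8 entered the quasi-likelihood test of edgeR 4.0.16 under R 4.3.3 (TMM, filterByExpr, robust, two-sided, group only, Benjamini-Hochberg at 0.05 over 15517 genes). A standard error is the log2 fold change divided by the root of F. CPM uses TMM-scaled totals, and log2 CPM a prior count of 2. No pair of libraries agreed within sampling noise (the lowest chi-square was 5.03 per degree of freedom). The steps were tested on simulated data of 4 against 4 libraries, drawn without a gene-length trend. There 40.3% of 1.5-fold, 69.2% of 2-fold and 93.8% of 4-fold changes were called. Of the 144 calls, 12 were of unchanged genes, and with no gene changed 0 were called. Intervals for reads cover counting error only, since PCR reads are not independent molecules.

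The genes and lists were chosen with earlier results of these data known. Named by rule were the 10 genes of smallest p, the 4 of highest vehicle FPKM in each class and the 2 on each side of 1 CPM; further ones are given to account for clusters and counts and were chosen after their values were seen. Partners named are those past the threshold, the 3 of smallest p and examples of known role. Alternatives changed the scaling, filter, tool (DESeq2 1.42.0, limma-voom 3.58.1), expression limit, replicate block, gene-length trend and libraries; a combination of length trend and omitted libraries was chosen after seeing the data. Protein sequences were not used here.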

Additional observations from a re-analysis of the deposited data

Results flagged for a closer look

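Of 35 group values examined, 4 held a library separated from the other 3 of its group by more than Dixon's critical share of the group's range, where chance flags about 1 in 20 groups. Gstp1 had 238.1 CPM in OPE 3 against 118.1 to 130.6 in the other OPE libraries. Gstm5 had 84.8 CPM in OPE 3 against 40.7 to 41.9 in the others. Cyp4v3 had 6.92 CPM in OPE 4 against 5.09 to 5.40, a value close to the highest vehicle library at 6.78. Cyp2w1 had 2.51 CPM in OPE 2 against 0.485 to 0.692. Both Gst values fall in the library with the gene-length trend.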

How the results depend on the processing

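No tested enzyme passed the threshold in any alternative. The lowest adjusted p was 0.137, for Cyp4f17 without OPE 4 (edgeR), and at most 4 enzymes had an unadjusted p under 0.05. The number of all genes called, 74, depended strongly on the processing. It was 131 with library totals, 136 without the filter and 504 with DESeq2, also run without it. With the length trend removed it was 322, and 247 with that trend and both OPE 1 and OPE 3 removed. Leaving out single libraries gave 7 to 308 genes, with 8, 7, 19 and 7 without vehicle 1, 2, 3 and 4, 12 without OPE 2, 308 without OPE 3 and 178 without OPE 4. The enzymes' median log2 fold change ranged from -0.06 without OPE 3 to 0.08 without vehicle 2.

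The number expressed was 42 at 0.1 CPM, 13 at 10 CPM, 21 at 1 FPKM and 24 to 25 without single vehicle libraries. Of 22 named enzymes tested, 13 kept 1 sign in every other fit that tested them, 18 fits for most and 17 for Cyp4f39, Cyp2u1 and Cyp2j9. Without OPE 3 the log2 fold change turned to -0.19 for Gsta4, -0.018 for Gstm5, 0.046 for Cyp2s1 and -0.34 for Sult2b1. Without both OPE 1 and OPE 3 it turned to -0.13 for Gsta4, -0.003 for Gstm5, 0.048 for Sult5a1, -0.026 for Gsto2, 0.18 for Cyp2w1 and -0.26 for Sult2b1. With the length trend removed as well it was -0.11 for Gsta4, 0.082 for Sult5a1, 0.004 for Cyp4v3, 0.21 for Cyp2w1 and -0.22 for Sult2b1. Sult5a1 also turned to 0.072 without vehicle 4, 0.06 without OPE 1 and 0.06 without OPE 4, and Cyp4f16 to -0.004 without vehicle 1 and -0.059 without OPE 2. Over all fits without a single library the range was -0.194 to 0.191 for Gsta4, -0.018 to 0.41 for Gstm5, -0.178 to 0.072 for Sult5a1, -0.059 to 0.15 for Cyp4f16, -0.525 to 0.046 for Cyp2s1 and -0.343 to 0.352 for Sult2b1. The cause of these changes was not tested.

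Deviations of same-numbered libraries correlated at 0.309, 0.0818, 0.0126 and 0.0918, and 2 of 4 vehicle libraries were closest to their own number. With so few libraries, these values cannot decide whether the replicate numbers pair them. With the replicate number as a block, 62 genes and 0 of the enzymes passed, and the enzymes' median was 0.04.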
